A study of Mus musculus with 2 samples.

Results

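The DNA repair genes described here are the genes whose deposited symbol begins with Rad, Xrcc, Ercc, Fanc or Parp (each except Fanc followed by a digit) or is one of a fixed set of mismatch repair, Brca and checkpoint kinase symbols (among them Msh6, Brca1, Brca2, Atm and Atr). The rule selects by name, not by any measured value, but it was set with earlier results of these data known. A site was a listed transcript position with at least 20 reads in replicate 2, and its replicate 1 value was used where that library listed the same position. By this rule 52 of 16212 sites, on 12 of 3919 named genes, belonged to the DNA repair genes, and 38 of the 52 were also listed in replicate 1, in 11 genes. Each of the 12 genes contributed 1 transcript. Counts and medians over the repair genes include all 12, and 10 of them are described one by one.

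The study examined N6-methyladenosine (m6A) on native RNA of mouse retinal organoids, tissue aggregates grown from stem cells. Both libraries came from wild-type Rx:GFP organoids, stem cells whose green fluorescence follows the eye-field gene Rx (Rax), kept for 6 days in differentiation medium that held 0.1 µM AGN. Every sample carried the reporter and the AGN treatment, no other genotype or treatment was present, and the single line limits what can be generalised. Each library was made from 1 µg of poly(A)-selected RNA with the RNA002 direct RNA kit and sequenced for about 48 h, with a separate flow cell for each. They form 1 group with n = 2, and the labels do not say whether the RNA came from separate cultures, so the spread between them, and any p-value from it, may be technical only. All 6 retinal progenitor markers looked up (Rax, Lhx2, Six3, Six6, Pax6 and Sox2) were listed in both libraries, 5 of them with 20 or more reads in replicate 2, whereas Pax6 reached at most 17. None of 3 pluripotency markers (Pou5f1, Nanog, Zfp42) was listed in either, which does not separate scarce RNA from unlisted positions.

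Cells meet different kinds of DNA damage with different machines. Mismatch repair corrects copying errors and begins with MutS dimers, one of which contains MSH6. Nucleotide excision repair cuts out bulky lesions, single-strand break repair is scaffolded by XRCC1 after PARP enzymes mark the break, and broken chromosomes are mended by homologous recombination or by end joining with the Ku heterodimer. Dividing progenitor cells of a developing retina copy their genome rapidly and express many of these genes. m6A itself is placed by the METTL3 complex on adenosines within a short sequence context known as DRACH, and is known to affect the stability and translation of the mRNA that carries it.

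In direct RNA sequencing the strand passes the pore uncopied, and the value deposited for each position is a fraction modified from 0 to 1. All listed positions lie on 4 motifs of 5 bases, which are shown because the level of the fraction differs with the motif. They are written 5′ to 3′ in DNA letters, and each matches DRACH.
The A-ending motif: GGACA
The A-first, T-ending motif: AGACT
The C-ending motif: GGACC
The G-first, T-ending motif: GGACT
They share the central bases and differ in the first or the last. Which base of the motif the listed position marks is not stated in the tables. A fraction in bulk RNA is an average, so fewer cells with modified copies and fewer modified copies per cell cannot be told apart.

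Among the 52 repair sites, the fraction in replicate 2 ran from 0, in Xrcc1, to 1. The A-ending motif held the highest values, among them those of Rad1, Parp2 and Xrcc1, and the lowest value as well, in Xrcc1. Msh6, a mismatch-recognition gene, held the most sites, 16, of which 11 lay below the median of other genes at the same motif in replicate 2. Xrcc1 followed with 9 sites, 8 of them below that median. In replicate 1 it was 13 of 15 listed sites in Msh6 and 4 of 6 in Xrcc1. Over all sites of the series, 49.7% lay below in replicate 2 and 48.9% in replicate 1. The remaining 10 genes had 1 to 5 sites each.

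**Figure D1:**
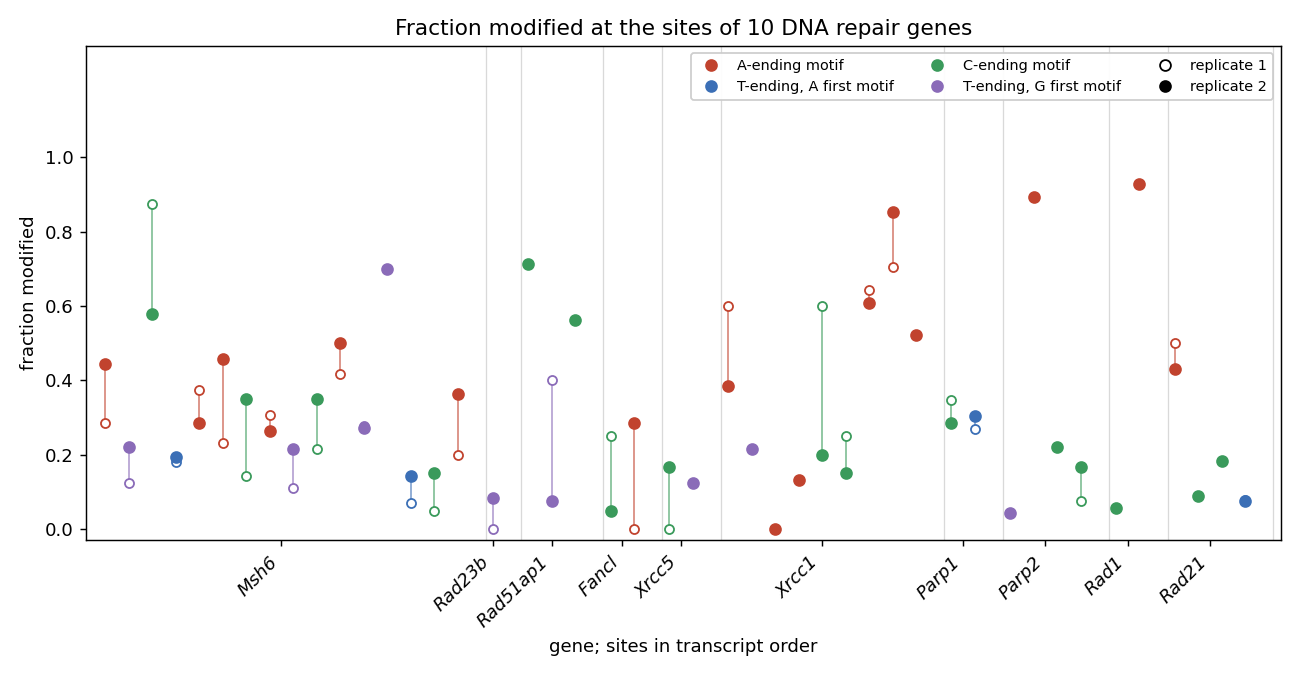
Fraction modified (vertical axis, 0 to 1) at 45 of the 52 sites, in 10 of the 12 genes, grouped by gene and placed in transcript order; filled points are replicate 2, open points replicate 1 where listed, lines join both, and colours give the motif class. The A-ending sites of Msh6 sit at or below 0.5, while those of Parp2 and Rad1, listed in replicate 2 alone, sit at 0.895 and 0.929.

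GGACA made up 20 of the 52 repair sites (38.5%, 95% Wilson interval 26.5% to 52.0%), against 35.6% in all other genes. GGACC made up 16 (30.8%, 19.9% to 44.3%, against 22.1%), GGACT 10 (19.2%, 10.8% to 31.9%, against 24.2%) and AGACT 6 (11.5%, 5.40% to 22.97%, against 18.1%). The intervals cover counting error only, and all 4 include the share in other genes. Median coverage was 32.5 reads at repair sites (20 to 211) and 36 reads at the sites of other genes in replicate 2. Median position on the transcript was 1551 nt (159 to 4042) and 1331 nt, respectively.

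At GGACA the median fraction of the repair genes lay below that of other genes in both libraries. It was 0.479 over 20 sites in replicate 2, against 0.667 over 5753 sites. In replicate 1 it was 0.458 over 16 sites, against 0.714 over 4517 sites. The difference, repair genes minus others, was -0.222 ± 0.0484 (SD, n = 2), larger than the spread between replicates, and an exact paired permutation over the 2 libraries (two-sided) gave p = 0.5, the smallest value it allows. This difference rested on 1 gene: without the 6 GGACA sites of Msh6 it was 0.0016 ± 0.0587 (SD, n = 2). With 1 median per gene it was -0.0443 ± 0.102 (SD, n = 2), within its own spread, and with 50 or more reads in replicate 2 it was -0.0162 ± 0.0309 (SD, n = 2).

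The other motifs gave smaller differences, each with an exact permutation p = 0.5. AGACT differed by -0.103 ± 0.0241 (SD, n = 2) over 6 sites in each library, GGACC by -0.0284 ± 0.0149 and GGACT by -0.0321 ± 0.0234 (each SD, n = 2). The sites behind them numbered 16 and 10 for GGACC, and 10 and 6 for GGACT, in replicates 2 and 1. The AGACT difference was -0.0536 ± 0.0320 without Msh6 (SD, n = 2). For GGACC the sign turned with 20 reads in both libraries (0.0263 ± 0.0920), and for GGACT it turned without Msh6 (0.0117 ± 0.196) or with 50 reads (0.458 in replicate 2, from a single Msh6 site). Over all motifs, 34 of 52 repair sites (65.4%) lay below the motif median of other genes in replicate 2, against 49.7% of all sites. In replicate 1 it was 24 of 38 (63.2%), against 48.9%. Leaving out Msh6 and Xrcc1, a choice made after the values were seen, left 15 of 27 (55.6%) and 7 of 17 (41.2%), with background shares of 49.7% and 48.9%.

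A fraction of 0.8 or more was found at 7 of 20 repair GGACA sites in replicate 2 (35%, 95% Wilson interval 18.1% to 56.7%), and 37.7% of all GGACA sites reached it. In replicate 1 it was 4 of 16 (25%, 10.2% to 49.5%), against 42%. At the other motifs it was 0 of 32 in replicate 2, which allows a share of up to 9.38% when 3 counts are taken as the limit of a count of 0 (the Wilson upper limit is 10.7%), against 6.52% of all such sites. In replicate 1, 1 of 22 reached it, against 8.58%. The share of near-complete sites was therefore not distinguishable from the background at these numbers.

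**Figure D2:**
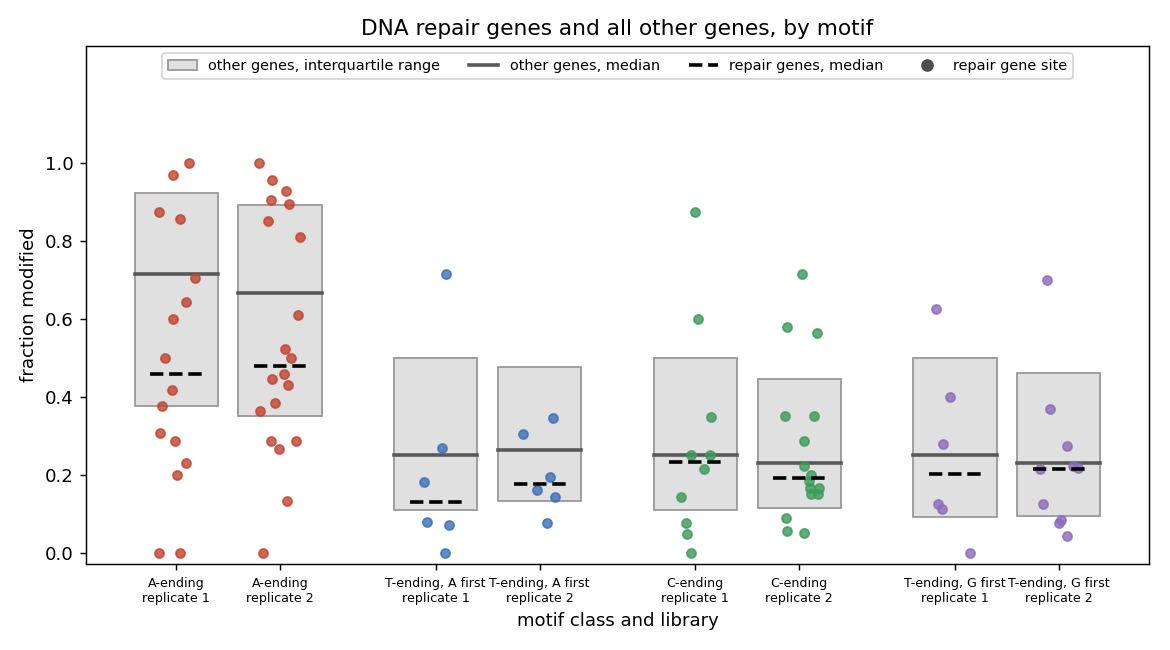
Fraction modified (vertical axis, 0 to 1) by motif class and library: points are repair sites, dashed lines their medians, grey boxes the interquartile range of all other genes and solid lines the medians of those. At the A-ending motif the repair medians of 0.458 and 0.479 lie under those of other genes (0.714 and 0.667), yet most points stay inside or above the grey box.

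Msh6 (chromosome 17, 88282490 to 88298320; gene coordinates here and below are the deposited ones, transcript ENSMUST00000005503.3), whose product recognises mismatches, had 6 GGACA sites and none above 0.5. In replicate 2 they were 0.444 at position 951, 0.286 at 1782, 0.458 at 2339, 0.265 at 2829, 0.5 at 3168 and 0.364 at 4042, over 22 to 57 reads. In replicate 1 the same sites were 0.286, 0.375, 0.231, 0.308, 0.417 and 0.2, over 12 to 29 reads. All 6 lay below the GGACA median of other genes in both libraries, at percentiles of 36.8 or less, where a percentile, here and below, is the share of sites of other genes at the same motif with a lower fraction, with equal fractions placed at their middle rank, so that a site listed at 0 stands above percentile 0 where other sites are also at 0.

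The 10 other Msh6 sites spread more widely. The highest in replicate 2 was a GGACT at position 3228, with 0.7 over 50 reads, at the 88.0 percentile of its motif, and it was not listed in replicate 1. The next in that library was a GGACC at position 1180, with 0.579 in replicate 2 (24 reads) and 0.875 in replicate 1 (12 reads), a mean of 0.727 ± 0.209 (SD, n = 2). Lowest in replicate 2 was an AGACT at position 3398, with 0.0714 over 26 reads in replicate 1 and 0.143 over 49 in replicate 2. The GGACC at position 3924, over 58 reads in replicate 2, had 0.15 there and 0.0476 over 30 reads in replicate 1. The remaining 6 ranged from 0.194 to 0.35 in replicate 2. The high values thus came from a site under 25 reads and a site listed in 1 library.

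Across Msh6, replicate 2 was the higher library. With 20 or more reads in both, it was higher at 8 of 10 Msh6 sites, by a mean of 0.105, with averages of 0.307 in replicate 2 and 0.202 in replicate 1. Over all such sites of the series, 45.8% were higher in replicate 2. Batch labels are the same for both libraries, and the part of read sampling in the Msh6 shift was not tested.

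**Figure D3:**
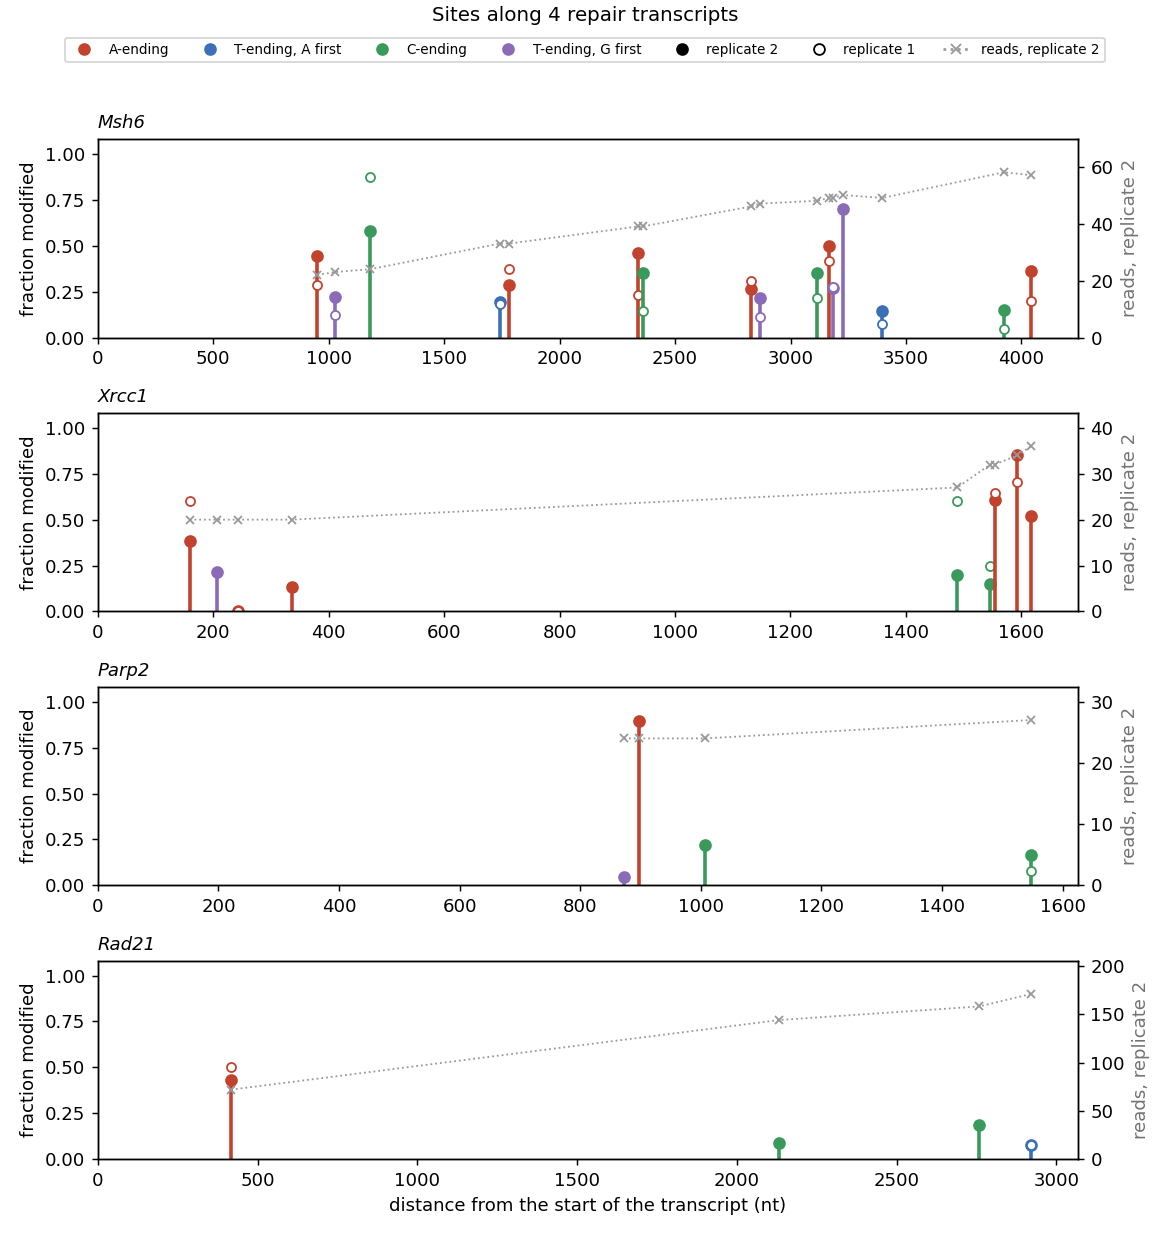
Fraction modified (left axis, 0 to 1) against distance from the transcript start in nucleotides for Msh6, Xrcc1, Parp2 and Rad21; filled points are replicate 2 and open points replicate 1, colours give the motif class, and the dotted grey line gives reads in replicate 2 (right axis). Msh6 shows low to middling values over 951 to 4042 nt, and reads increase along the transcript from 22 to 57.

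Nucleotide excision repair was represented by Rad23b (chromosome 4, 55350043 to 55392237, transcript ENSMUST00000030134.8), whose product helps the damage sensor XPC find lesions. It had 1 site, a GGACT at position 3030, with 0 in replicate 1 (15 reads) and 0.0833 in replicate 2 (26 reads), at percentiles 7.95 (tied with the other sites at 0) and 21.5 of its motif. A fraction listed at 0 is an estimate from few reads.

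Rad51ap1 (chromosome 6, 126900013 to 126916550, transcript ENSMUST00000112221.7), an accessory factor of homologous recombination, had 3 sites over 22 to 23 reads in replicate 2. The GGACC sites at positions 1111 and 1248 had 0.714 and 0.563, at percentiles 90.7 and 83.4 of their motif, and neither was listed in replicate 1. The GGACT at position 1120 had 0.0769, against 0.4 over 8 reads in replicate 1. Positions 1111 and 1120 are 9 nt apart and differed by 0.637 in replicate 2, a gap that replicate 1 gives no value for.

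Fancl (chromosome 11, 26336135 to 26421876, transcript ENSMUST00000004120.8), the ubiquitin ligase subunit of the Fanconi anaemia core complex, had 2 sites. Its GGACA at position 2071 had 0.286 in replicate 2 (26 reads) and 0 in replicate 1 (11 reads). Its GGACC at position 1803 had 0.05 over 25 reads and 0.25 over 11 reads, in the same order. The GGACA value was low for its motif in both libraries, at percentiles 19.6 and 1.69, the latter a tie with the other sites at 0. End joining had Xrcc5 (chromosome 1, 72346586 to 72434111, transcript ENSMUST00000027379.8), which encodes the larger Ku subunit. Its GGACC at position 561 had 0.167 in replicate 2 (29 reads) and 0 in replicate 1 (8 reads), and its GGACT at position 672 had 0.125 over 30 reads in replicate 2 alone. All these values lay below the motif median of other genes except that of Fancl position 1803 in replicate 1, which equalled it.

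Single-strand break repair gave 15 sites in 3 genes. Xrcc1 (chromosome 7, 24245714 to 24272865, transcript ENSMUST00000063249.8), the scaffold of that pathway, had 9, which fall into a group at positions 159 to 336 and a group at positions 1489 to 1617. In the first group the GGACA values in replicate 2 were 0.385 at position 159, 0 at 243 and 0.133 at 336, each over 20 reads. In the second they were 0.609 at position 1554, 0.852 at 1593 and 0.522 at 1617, over 32 to 36 reads. The GGACA values of the groups did not overlap in replicate 2, and their medians differed by 0.475. The same split was not made in other genes, so whether the gap is particular to Xrcc1 was not tested.

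Replicate 1 gave fewer values for Xrcc1, and the first group there rested on 5 reads a site. Position 159 had 0.6 and position 243 had 0, against 0.643 over 16 reads at position 1554 and 0.706 over 20 reads at 1593. The difference of medians was 0.374, and 0.425 ± 0.0714 over both libraries (SD, n = 2). The split into groups was made after the values were seen, so it carries no test. The GGACC at position 1489 had 0.2 in replicate 2 (27 reads) and 0.6 in replicate 1 (10 reads), the widest disagreement among the 38 repair sites listed in both. The GGACC at position 1546 had 0.15 over 32 reads and 0.25 over 15 reads, again with replicate 2 first. It lies 8 nt from the GGACA at position 1554, and the pair differed by 0.459 in replicate 2 and 0.393 in replicate 1. These motifs differ in level in other genes too, with medians of 0.231 and 0.667 in replicate 2. Within their motifs the pair stood at percentiles 34.3 and 45.4 in replicate 2, and 51.4 and 44.0 in replicate 1. The last Xrcc1 site, a GGACT at position 207, had 0.214 over 20 reads in replicate 2.

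Parp1 (chromosome 1, 180396489 to 180428819, transcript ENSMUST00000027777.11), whose enzyme builds poly(ADP-ribose) at strand breaks, had the deepest repair site, and its 2 sites differed little between the libraries. The AGACT at position 3448 had 0.269 in replicate 1 (82 reads) and 0.303 in replicate 2 (211 reads), a mean of 0.286 ± 0.0241 (SD, n = 2). The GGACC at position 1064 had 0.348 over 35 reads and 0.286 over 93 reads, replicate 1 first, a mean of 0.317 ± 0.0439 (SD, n = 2). Both sat near the middle of their motifs, at percentiles 51.2 to 64.0. Parp2 (chromosome 14, 51045298 to 51058758, transcript ENSMUST00000036126.5), its relative, had 4 sites over 24 to 27 reads in replicate 2. The GGACA at position 898 had 0.895, and the GGACT at position 873, 25 nt before it, had 0.0435. Their percentiles, each within its motif, were 75.3 and 10.6. The GGACC sites at positions 1007 and 1548 had 0.222 and 0.167, the latter with 0.0769 over 14 reads in replicate 1, which listed none of the other 3.

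Rad1 (chromosome 15, 10486104 to 10499149, transcript ENSMUST00000022856.14), part of the ring-shaped checkpoint clamp, had 2 sites in replicate 2 and no value for them in replicate 1. The GGACA at position 1047 had 0.929 over 21 reads and the GGACC at position 308 had 0.0556 over 20 reads. Their percentiles, each within its motif, were 80.6 and 10.2. A high and a low value thus occurred on 1 transcript at nearly the same depth, but at different motifs.

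Rad21 (chromosome 15, 51825636 to 51855143, transcript ENSMUST00000022927.9) encodes the cohesin subunit that closes the ring around sister chromatids, and entered through its name. All its sites had 72 or more reads in replicate 2. The GGACA at position 417 had 0.5 in replicate 1 (22 reads) and 0.431 in replicate 2 (72 reads), at percentiles 34.0 and 31.3. The AGACT at position 2921 had 0.0784 over 69 reads and 0.0756 over 171 reads, replicate 1 first, a mean of 0.077 ± 0.00198 (SD, n = 2). The GGACC sites at positions 2133 and 2758 had 0.0882 over 144 reads and 0.184 over 158 reads in replicate 2 alone. All 4 lay below the motif median of other genes.

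The error of a single fraction was read from the 38 repair sites listed in both libraries. The median absolute difference was 0.101, and 9 of 38 sites (23.7%) differed by more than 0.2. In other genes the median was 0.075, and over all sites listed in both 15.7% differed by that much. The difference narrowed with depth. Where the lower coverage was 5 to 9 reads, the root mean square difference over 41 repair positions (no minimum applied) was 0.311, against 0.248 in other genes. At 10 to 19 reads it was 0.207 over 16 positions against 0.169, and at 20 to 49 reads 0.118 over 15 positions against 0.114. With 20 or more reads in both libraries, 17 repair sites in 5 genes, among them Msh6, Parp1, Rad21 and Xrcc1, remained. Of these 2 differed by more than 0.2 (11.8%), namely Msh6 positions 2339 and 2360, and 5.94% of all such sites did. Across the 17 sites Pearson's r was 0.937 and Spearman's rho 0.792, a description across sites that share transcripts and libraries.

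**Figure D4:**
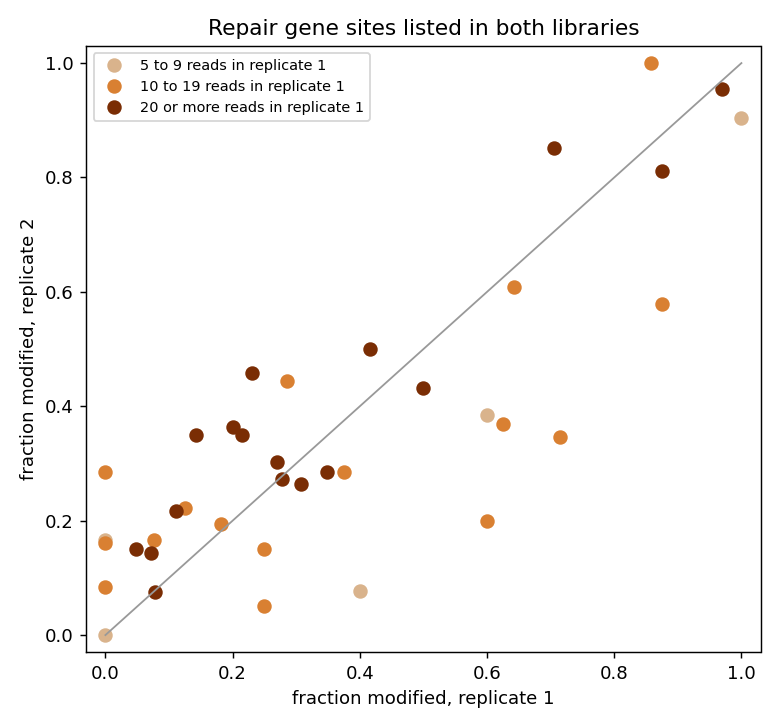
Fraction modified in replicate 1 (horizontal axis) against replicate 2 (vertical axis) at the 38 repair sites listed in both libraries, coloured by reads in replicate 1, with the line of equality. The widest departure, 0.4 at Xrcc1 position 1489, has 10 reads in replicate 1, and the widest with 20 or more reads is 0.228, at Msh6 position 2339.

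Listing itself differed between the libraries. Of the 52 repair sites, 14 (26.9%) were not listed in replicate 1, against 25.2% of all sites. With 50 or more reads in replicate 2, 3 of 11 were not listed (27.3%), against 15.1%: Rad21 positions 2133 and 2758 and Msh6 position 3228. In the other direction, 3 of 20 repair positions with 20 or more reads in replicate 1 were not listed in replicate 2 at any depth (15%), against 19% of all such positions. Among them were a Parp1 GGACC at position 2702 (0.0702 over 68 reads) and a Rad21 GGACT at position 1616 (0.158 over 26 reads). Both lie on transcripts with deep sites in replicate 2, so coverage elsewhere on a transcript did not settle whether a position was listed. The rule for listing is not given in the sources used here.

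Coverage in replicate 2 increased along the repair transcripts. From each site to the next on the same transcript it was higher at 27 of 40 steps (67.5%), equal at 11 and lower at 2, both of those in Msh6. In other genes it was higher at 60.2% of 11600 steps and lower at 8.89%. The steepest were Msh6, from 22 to 57 reads over 951 to 4042 nt, Rad21, from 72 to 171 over 417 to 2921 nt, and Parp1, from 93 to 211 over 1064 to 3448 nt. In these genes the sites nearest the transcript start had the fewest reads.

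The coverage minimum decided which repair genes could be described. Of 69 protein-coding symbols that match the rule in RefSeq (GRCm38.p6), 44 were listed in at least 1 library, 25 in replicate 1 and 43 in replicate 2, with 108 and 239 positions. In replicate 2, 12 of the 43 (27.9%) reached 20 reads at a position, against 48.6% of all named genes listed there. By position it was 52 of 239 (21.8%), against 32.4%. The 32 listed below 20 reads included the mismatch repair gene Msh3, the excision repair genes Ercc1, Ercc3, Ercc5, Ercc6l2 and Ercc8, and the end-joining genes Xrcc4 and Xrcc6. In homologous recombination they were Brca1, Brca2, Rad50, Rad51b, Rad51d, Rad54l, Xrcc2 and Xrcc3. The Fanconi anaemia genes were Fanca, Fancc, Fancd2, Fance, Fancg and Fanci, and the checkpoint and tolerance genes were Atm, Rad9a, Rad17 and Rad18. Parp8, Parp11, Ercc6l and Rad54l2 were also among them. Nearest to the minimum were Ercc3 with at most 19 reads, and Brca1 and Rad54l2 with at most 18. No position of the other 25, among them Atr, Ercc2, Fancm, Rad51c and Rad52, appeared in either table, and since listing starts at 5 reads this does not separate scarce RNA from an unlisted position. Just inside the minimum, 6 repair sites with 20 to 21 reads ran from 0 to 0.929 (median 0.174), and just outside, 8 positions with 18 to 19 reads ran from 0.0714 to 0.846 (median 0.436).

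Repair genes outside the name rule were looked up from a list of 88 symbols, which include ligases, glycosylases, replication protein A and damage signalling genes. Of these 66 were listed, 33 had a site of 20 or more reads in replicate 2 (147 sites), and 13 had one with 20 reads in both libraries. Their sites lay on both sides of the motif median of other genes: 74 of 147 (50.3%) were below it in replicate 2 and 48 of 112 (42.9%) in replicate 1, against 49.7% and 48.9% of all sites. Their GGACA median was 0.75 over 53 sites in replicate 2 and 0.833 in replicate 1. Pcna, the sliding clamp of replication, ranged from 0.0786 to 0.213 over 3 sites, and Tdg, a glycosylase that removes thymine from mismatches, from 0.0541 to 1 over 10 sites. Usp1, which removes ubiquitin from FANCD2 and PCNA, had the most sites of this list, 20, from 0.0357 to 1.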

How the data were processed

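Both libraries were sequenced as native poly(A) RNA, and 4 tables (plus and minus for each) were read. Per the file headers, a row names a transcript position and its motif and gives 2 values. Coverage is a deposited whole-number count of reads, never under 5. The fraction modified is a deposited fraction from 0 to 1 whose denominator is not stated: at 5 of 52 repair sites it is a whole multiple of 1 over the coverage (tolerance 0.0001), so no read counts were derived from it, single fractions carry no interval and reads were not tested. Base caller, aligner and modification caller are not given in the sources used here. Per the submitters' processing notes the build is mm10, yet the gene starts of 2 of the 12 genes lie within 1000 bases of RefSeq GRCm38.p6, so the deposited gene coordinates are of a build not named and were kept apart from it. Whether a site is coding was not analysed here, and positions are the deposited ones, since transcript lengths were not used to scale them.

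Sites were matched on transcript and exact end position, taken as 1-based. Medians were compared with all other genes within each motif and library, including positions without a gene name (1.06% of replicate 2). Exact permutation used the 2 libraries. Shares carry 95% Wilson intervals. The computation of the motif differences was checked by adding known shifts to randomly drawn sites of these data. That check did not imitate repair sites clustered in few genes, so it gives no measure of how reliable the reported differences are. Median coverage over all listed positions was 10 and 12 reads. Named were all genes with a site, with the highest and lowest site and those with 50 or more reads; results for some genes are not reported here. The members, pathway groups and gene lists were chosen with earlier results of these data known. Alternatives were the coverage minimum, 1 transcript per gene, matching within 5 nt, the threshold of 0.8, medians per gene, the coverage range and leaving out genes or a replicate. Python 3.11.15, pandas 2.3.3, NumPy 2.4.6 and SciPy 1.17.1 were used.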

Additional observations from a re-analysis of the deposited data

Results flagged for a closer look

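Fancl, the only repair gene in the minus tables, was listed there at position 908, a GGACT, with 7 reads in replicate 1 (fraction 0.857) and 7 reads in replicate 2 (fraction 1). These tables lie outside the main measurement and held 11 and 35 positions in all, what sets them apart is not given in the sources used here, and the position was not used for any comparison.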

How the results depend on the processing

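Depth is a limit: 11 of 52 repair sites had 50 or more reads in replicate 2, and 7 of the 12 genes had no position with 20 reads in both libraries. Without a minimum there were 239 sites in 43 genes, with 50 reads 11 in 4, and with 20 reads in both libraries 17 in 5. The C-ending share was 19.7% without a minimum, and the G-first T-ending share 9.09% with 50 reads. Sites differing by over 0.2 made up 0% with 50 reads and 11.8% with 20 in both. The motif differences (repair genes minus others, named by motif class) were, without a minimum, -0.0667 at the A-first T-ending, -0.0087 at the C-ending and -0.0625 at the G-first T-ending; with 50 reads, -0.0162 at the A-ending and 0.458 at the G-first T-ending motif (1 site); with 20 in both, -0.148 at the A-first T-ending and 0.0263 at the C-ending. With 1 median per gene they were -0.0443 at the A-ending, -0.0773 at the A-first T-ending and -0.0483 at the C-ending. At the A-first T-ending motif the difference was -0.0690 without Rad21 and -0.137 without the Parp genes. The following were chosen after seeing the data: without Msh6 the differences were 0.0016 at the A-ending, -0.0536 at the A-first T-ending and 0.0117 at the G-first T-ending, and without Xrcc1 -0.0496 at the C-ending. Leaving out a replicate gave -0.256 to -0.188 at the A-ending, -0.120 to -0.0858 at the A-first T-ending, -0.0390 to -0.0179 at the C-ending and -0.0486 to -0.0156 at the G-first T-ending, which with n = 2 says nothing about stability.

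Group medians relative to the motif were, without a minimum, -0.208 for Fanconi anaemia (-0.319 with it), -0.0532 for checkpoint and tolerance (0.0434 with it), 0.0889 for homologous recombination (0.203) and -0.0452 for excision repair (-0.199). With 50 reads they were 0.0840 for mismatch repair (-0.0905 with 20) and 0.0632 for single-strand break repair (-0.0332), and the latter was 0.0381 with 20 reads in both, where Xrcc1 was 0.101 from 1 site (-0.0604). Only mismatch repair, single-strand break repair and cohesin gave a value with 50 reads or with 20 in both. The cause was not tested; each setting changes which sites enter. Of the 33 values of single genes under alternatives, 27 stayed within 1 SD. The share of sites below the motif median, added after seeing the data, was 55.6% to 63.9% in replicate 2 and 41.2% to 62.5% in replicate 1 without Msh6, Xrcc1 or both. The other listed alternatives, including matching within 5 nt, 1 transcript per gene and the coverage range, left every value within its spread. The samples form 1 group, so no replicate number is shared between groups and no fit with a replicate block was made.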
